A study of Rattus with 6 samples.

Results

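Cartilage regulators, aggrecan, lubricin and their partners were followed as 10 genes, chosen by symbol in the deposited count table: the transcription factor genes Sox9, Sox5 and Sox6, and the secreted protein genes Acan, Prg4, Comp, Hapln1, Matn3, Chad and Cytl1. All 10 were present among the 30211 genes of the table. RNA sequencing had been done on 3 rat bone marrow mesenchymal stem cell (BMSC) libraries labelled dexamethasone, a synthetic glucocorticoid given at 100 uM, and on 3 libraries labelled control, which were grown without it. Both groups were wild type and were collected at day 4. The treatment tag reads DEX for all 6 libraries, so the groups rest on the titles and descriptions. The sources used here do not say whether the controls received vehicle, or whether replicates were separate cultures or animals. The p-values therefore measure only the spread between these libraries, which may be technical.

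SOX9 is the transcription factor that cartilage formation depends on. SOX5 and SOX6 lack an activation domain of their own and work with SOX9 at the enhancers of cartilage genes in mouse. Among those genes are Acan, which encodes aggrecan, a large proteoglycan whose chondroitin sulphate chains hold water in cartilage, and Hapln1, which encodes the link protein that fixes aggrecan to hyaluronan. Prg4 encodes lubricin, a mucin-like lubricant of joint surfaces that is also made by the synovial lining. Marrow stromal cells can be driven toward cartilage in culture, and dexamethasone is a usual component of the media used for this.

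Libraries held 34835072 to 41676315 counts. Levels are given as CPM, counts relative to library size, scaled by TMM, a factor that corrects for differences in library composition. A gene was called when its p by edgeR's quasi-likelihood test, after Benjamini-Hochberg correction, was below 0.05 over the 14111 genes that passed a filter on low counts. Fkbp5, Tsc22d3 and Per1, established targets of the glucocorticoid receptor, stood higher in all 3 dexamethasone libraries than in any control, with log2 fold changes of 4.30, 2.88 and 1.63. Markers of marrow stroma were present in all libraries, with a summed level of 2282 to 2328 CPM over 9 genes with dexamethasone and 3239 to 3260 CPM in controls. Apart from Sox9 and Acan, which are given below, the markers of chondrocytes were nearly absent. Col2a1 had 2 counts in the dexamethasone libraries together and 4 in the controls, and Col9a1 and Matn1 had 0 in all 6.

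Of the 10 cartilage genes, 5 had enough counts to be tested. Prg4 rose with dexamethasone, Sox9 and Acan fell, and Sox5 and Chad did not pass the test. These 3 calls stand against a background of 64.0% of all tested genes called in either direction, with 32.3% called up and 31.7% called down. Against a fold change of 1.5 the same 3 were called, where 20.0% of all tested genes were, and with the biological coefficient of variation set to 0.2 again the same 3, where 26.2% were. No dexamethasone library overlapped any control for Prg4, Sox9 and Acan, as for 66.9% of all tested genes. In bulk RNA, fewer cells of a type and less RNA per cell cannot be told apart.

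**Figure D1:**
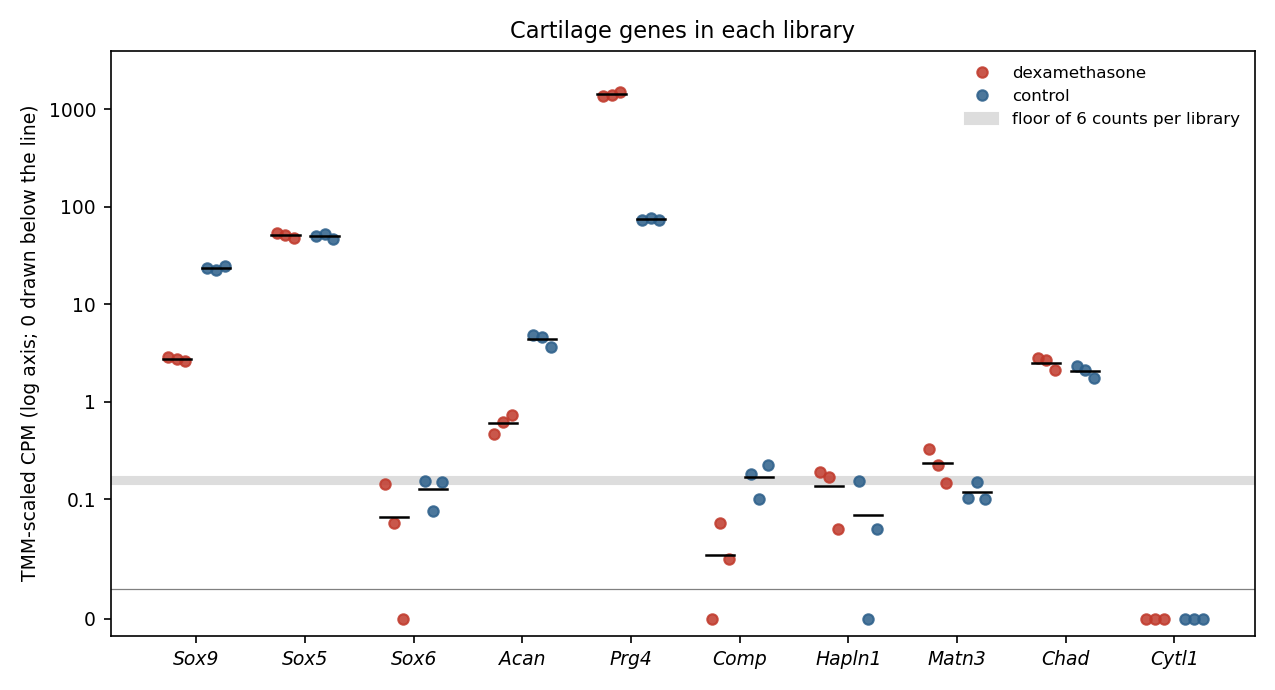
TMM-scaled CPM of the 10 cartilage genes (log axis, with values of 0 drawn below the grey line) in each library, dexamethasone left and control right of each gene. Points are libraries, black bars are group means, and the grey band is the level of 6 counts per library; Prg4 stands far higher with dexamethasone, Sox9 and Acan stand lower, and Sox6, Comp, Hapln1 and Matn3 lie around the band.

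Sox9 (chromosome 10, 101288489 to 101293379, plus strand) had 2.91, 2.72 and 2.61 CPM in dexamethasone replicates 1 to 3, against 23.9, 22.6 and 24.5 CPM in control replicates 1 to 3. The groups did not overlap, and the lowest control stood far above the highest dexamethasone library. Sox9 was 8.59-fold lower with dexamethasone, a log2 fold change of -3.10 ± 0.056 (SE, n = 3 each), with an adjusted p of 2.5e-30 (edgeR's quasi-likelihood test, Benjamini-Hochberg). Its change ranked 188th among falls over the 14111 tested genes, so 1.33% of tested genes had a log2 fold change as low or lower. The values rest on 325 counts in the dexamethasone libraries and 2793 in the controls. Coordinates here and below are those of the table; its rat build is not named in the sources used here.

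Sox5 (chromosome 4, 178066165 to 178441547, minus strand) did not pass the test. It had 53.5, 51.3 and 48.4 CPM with dexamethasone, against 50.5, 52.2 and 47.3 CPM in controls. The ranges of the groups overlapped almost fully, and the log2 fold change was 0.03 ± 0.059 (SE, n = 3 each), with an adjusted p of 0.589 (edgeR's quasi-likelihood test). With 6031 counts in the dexamethasone libraries and 5901 in the controls, depth was not limiting: the ratio of dexamethasone to control was 1.02, with an exact 95% binomial interval of 0.971 to 1.08 for counting error only.

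Sox6 (chromosome 1, 185673177 to 186182829, plus strand), the close relative of Sox5, was near the limit of detection. It had 6, 2 and 0 counts with dexamethasone and 6, 3 and 6 counts in controls, and it did not pass the filter. Low counts in the table came mostly in steps of 2, so a floor of 6 counts, or 3 read pairs, was used, which is 0.142 to 0.170 CPM by library. No dexamethasone or control library exceeded 6 counts for Sox6, and the ratio of dexamethasone to control was 0.50 with an interval of 0.110 to 1.87, which includes no difference.

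The ratio of Sox5 to Sox9 differed between the groups. Set on a per-kilobase scale, which allows genes of different length to be compared, the level of Sox5 was 18.1, 18.6 and 18.3 times that of Sox9 in the dexamethasone libraries, against 2.09, 2.28 and 1.91 times in the controls. The ratios within each group lay close together and the groups did not overlap. With Sox5 nearly level, this difference restates the fall of Sox9 and is not a separate result.

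Acan (chromosome 1, 140762758 to 140824441, plus strand) fell together with Sox9, at a much lower level. It had 0.474, 0.624 and 0.739 CPM with dexamethasone, or 20, 22 and 30 counts, against 4.87, 4.61 and 3.62 CPM in controls, or 188, 182 and 145 counts. The groups did not overlap, although both spread more widely than for Sox9. Acan was 7.12-fold lower, a log2 fold change of -2.83 ± 0.22 (SE, n = 3 each), with an adjusted p of 4.5e-16 (edgeR's quasi-likelihood test, Benjamini-Hochberg). It ranked 229th among falls, and 1.62% of tested genes had a log2 fold change as low or lower.

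Hapln1 (chromosome 2, 18354542 to 18419071, plus strand), which encodes the link protein that joins aggrecan to hyaluronan, had 8, 6 and 2 counts with dexamethasone and 6, 0 and 2 counts in controls. Only dexamethasone replicate 1 exceeded the floor. The ratio of dexamethasone to control was 2.0 with an interval of 0.536 to 9.07, so a difference was not detectable at this depth.

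Prg4 (chromosome 13, 67672878 to 67688477, minus strand) moved the other way and by more. It had 1372, 1423 and 1514 CPM in dexamethasone replicates 1 to 3, against 74.0, 76.2 and 73.6 CPM in control replicates 1 to 3. The groups did not overlap, and replicates within each group lay close together. Prg4 was 19.2-fold higher with dexamethasone, a log2 fold change of 4.27 ± 0.044 (SE, n = 3 each), with an adjusted p of 3.2e-45 (edgeR's quasi-likelihood test, Benjamini-Hochberg). It ranked 85th among rises over all tested genes, and 0.602% of them had a log2 fold change as high or higher. Lubricin transcripts made up 0.139%, 0.144% and 0.153% of all counts with dexamethasone, against 0.00729%, 0.00748% and 0.00731% in controls. On the per-kilobase scale Prg4 ranked 165th, 164th and 152nd of all genes in the dexamethasone libraries, against 3430th, 3361st and 3435th in the controls.

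**Figure D2:**
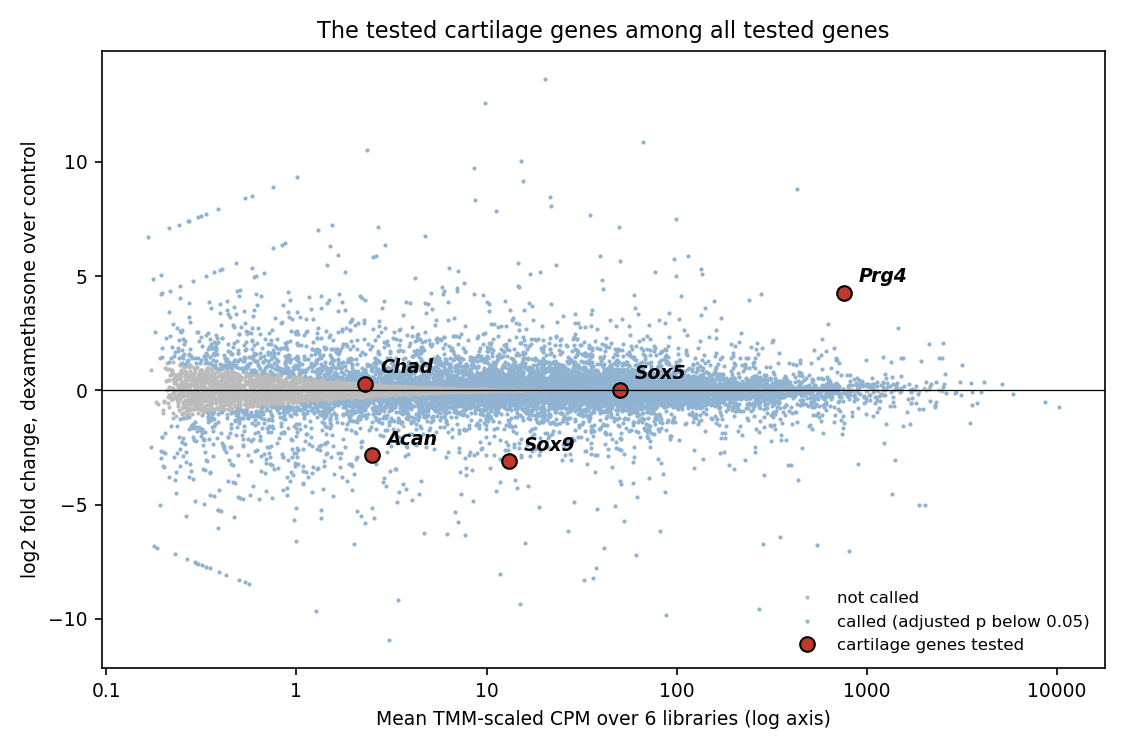
log2 fold change of dexamethasone over control against the mean TMM-scaled CPM over the 6 libraries (log axis) for all 14111 tested genes, each a dot, blue where called and grey where not. The 5 tested cartilage genes are large red points: Prg4 lies at 4.27 among abundant genes, Sox9 at -3.10 and Acan at -2.83 lie in the lower margin, and Sox5 and Chad lie near 0.

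The gene whose pattern was nearest to that of Prg4 was Fkbp5, a co-chaperone gene of the glucocorticoid receptor. Likeness was measured as the Euclidean distance between log2 CPM values over the 6 libraries, each gene centred on its own mean, among 10786 candidates averaging at least 1 CPM. The distance was 0.056 for Fkbp5, which had 1290, 1390 and 1430 CPM with dexamethasone and 69.0, 71.0 and 69.3 CPM in controls. Aox1, which encodes an aldehyde oxidase, and Adarb1, which encodes an RNA-editing deaminase, followed at distances of 0.18 and 0.24. For Sox9 the nearest were Cxcl16, a chemokine gene, Fgf7, a growth factor gene, and Cxcl1, a neutrophil chemokine gene, at distances of 0.19, 0.19 and 0.20. Cxcl1 had 288, 318 and 292 CPM with dexamethasone and 2609, 2451 and 2449 CPM in controls. With only 2 groups, such a distance mostly measures an equal fold change.

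Comp (chromosome 16, 20798437 to 20807070, minus strand) encodes cartilage oligomeric matrix protein, a thrombospondin relative that binds collagen. It had 0, 2 and 1 counts with dexamethasone and 7, 4 and 9 counts in controls. The groups did not overlap, but all values were at or near the floor and the gene did not pass the filter. The ratio of dexamethasone to control was 0.20 with an interval of 0.0213 to 0.938. Without the filter, where 45.1% of 20392 genes were called, Comp was not called (adjusted p = 0.0620, edgeR's quasi-likelihood test), nor were Sox6, Hapln1 and Matn3 (adjusted p of 0.529, 0.474 and 0.296).

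Matn3 (chromosome 6, 34071428 to 34091048, plus strand) encodes matrilin-3, an adaptor of the cartilage matrix. It had 14, 8 and 6 counts with dexamethasone and 4, 6 and 4 counts in controls. Dexamethasone replicates 1 and 2 exceeded 6 counts and no control did, but the groups met at 6 counts. The ratio was 2.0 with an interval of 0.755 to 5.85.

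Chad (chromosome 10, 82292110 to 82296651, plus strand) encodes chondroadherin, a leucine-rich repeat protein that binds chondrocytes and collagen. It had 2.80, 2.67 and 2.14 CPM with dexamethasone, against 2.36, 2.10 and 1.75 CPM in controls. The groups overlapped, and the log2 fold change of 0.29 ± 0.17 (SE, n = 3 each) was not called (edgeR's quasi-likelihood test, adjusted p = 0.162); the counting interval of the ratio ran from 0.962 to 1.57. Of the 2435 exon bases of Chad, 77 overlap exons of Acsf2, an acyl-CoA synthetase gene on the opposite strand. The sources used here do not give the strand setting of the counting, so some reads of Chad may belong to Acsf2. Acsf2 itself had a log2 fold change of 0.32 ± 0.077, and the counts of Chad were 0.178, 0.168 and 0.130 of those of Acsf2 with dexamethasone, against 0.186, 0.149 and 0.148 in controls.

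Cytl1 (chromosome 14, 77805130 to 77810147, minus strand), which encodes a small secreted protein of chondrocytes, had 0 counts in all 6 libraries. This allows a level of up to 0.142 to 0.170 CPM by library, for counting error only.

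By level per kilobase, the order in the dexamethasone libraries was Prg4 at 451 ± 22.6, Sox5 at 14.7 ± 0.744, Chad at 1.04 ± 0.142, Sox9 at 0.804 ± 0.0448, Matn3 at 0.118 ± 0.0461 and Acan at 0.0882 ± 0.0192 CPM per kilobase (SD, n = 3). Matn3 and Acan overlapped, and Hapln1, Sox6 and Comp, at 0.0268 or below, each overlapped the next. In the controls the order was Prg4 at 23.4 ± 0.432, Sox5 at 14.4 ± 0.720, Sox9 at 6.92 ± 0.277, Chad at 0.850 ± 0.126 and Acan at 0.630 ± 0.0951 CPM per kilobase (SD, n = 3). None of these 5 overlapped its neighbour in the controls, while Comp, Matn3, Sox6 and Hapln1, at 0.0603 or below, each overlapped the next. Sox9 thus stood above Chad in every control and below it in every dexamethasone library.

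The pathway around these genes was described with lists of other cartilage genes. Of 107 tested genes on the 10 lists, 36 rose, 50 fell and 21 stayed uncalled (median log2 fold change -0.24, against -0.00019 for all tested genes). Called genes made up 80.4% of those tested, against 64.0% of all genes. The lists were chosen with earlier results of these data known, so this difference is not a test of the lists. No set test was made. Counts of rises and falls for each list below stand against 32.3% up and 31.7% down of all tested genes. Changes in both directions within a list are therefore common. Beyond the genes picked by size from each list, some are named after their values were seen.

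Cartilage collagens did not move together. Of 5 tested out of 8, Col11a1 rose, Col27a1 and Col11a2 fell, and Col9a2 and Col9a3 were not called; the median log2 fold change was 0.30. Col11a1, a fibrillar collagen also made outside cartilage, had 1105 ± 7.37 CPM with dexamethasone and 146 ± 2.40 CPM in controls (SD, n = 3). Col27a1 had 27.2 ± 1.44 CPM with dexamethasone and 114 ± 3.41 CPM in controls, and Col11a2 changed by -0.40 on the log2 scale, a call that did not hold against a fold change of 1.5 or at a coefficient of variation of 0.2 (edgeR, adjusted p = 0.268). Col10a1, the collagen of hypertrophic cartilage, had 20 counts in all with dexamethasone and 21 in controls and was not tested.

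Other cartilage matrix genes were mostly too low to test. Of 20 in the table, 8 were tested, of which 3 rose, 2 fell and 3 stayed uncalled (median log2 fold change 0.35). Ogn, which encodes the small proteoglycan osteoglycin, rose by 3.84 on the log2 scale, and Fibin rose by 1.95. Fmod, which encodes the collagen-binding fibromodulin, fell by 1.49 on the log2 scale. Epyc and Clec3a had 0 counts in all libraries, as did Matn1.

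Among other genes of hyaluronan-binding proteoglycans and link proteins, 3 of 5 were tested, Vcan, Ncan and Hapln4, and all 3 fell. The median log2 fold change was -3.07, the value of Hapln4, also with Ncan at its bound. Ncan and Hapln4 averaged below 1 CPM, so this median rests on genes of low level. Vcan, which encodes versican, was the abundant one, at 1709 ± 2.37 CPM with dexamethasone and 2849.8 ± 22.0 CPM in controls (SD, n = 3), a log2 fold change of -0.74. Ncan, which encodes neurocan and is named after its values were seen, had 0 counts with dexamethasone and 72 in controls, at least 12.0-fold lower by the floor over the group. Among thrombospondin and matrilin relatives of Comp and Matn3, of 3 tested, Thbs1 fell by 1.57 and Thbs3 rose by 0.38 on the log2 scale, and Thbs2 did not pass. The call of Thbs3 did not hold against a fold change of 1.5 or at a coefficient of variation of 0.2 (edgeR, adjusted p = 0.267). The median of these 3 was -0.04.

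Among other chondrogenic transcription factors and cofactors, 3 rose, 8 fell and 3 stayed uncalled (median log2 fold change -0.61). Bhlhe40 and Bhlhe41, clock-linked repressors of the same family, fell by 2.52 and 1.64, and Sox11 fell by 1.49 on the log2 scale. Wwp2, a ubiquitin ligase that binds SOX9 and is named after its values were seen, fell by 0.69 on the log2 scale.

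Of 15 tested chondrogenic signals and receptors, 6 rose, 7 fell and 2 stayed uncalled (median log2 fold change -0.32). Bmp2, a bone morphogenetic protein that induces cartilage, had 1.35 ± 0.0418 CPM with dexamethasone and 15.3 ± 0.460 CPM in controls (SD, n = 3). Igf1, a growth factor of cartilage, had 8 counts in all with dexamethasone and 312 in controls, a log2 fold change of -5.22. Npr3, the clearance receptor of natriuretic peptides, had 586 counts with dexamethasone and 10 in controls, a log2 fold change of 5.82 that became 7.44 without control replicate 2, which held 8 of those 10 counts. Gdf5, a growth factor of joint formation named after its values were seen, had 8, 7 and 10 counts with dexamethasone and none in controls, and was not tested.

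Enzymes that build the chondroitin sulphate chains of aggrecan changed in both directions. Of 22 tested, 7 rose, 8 fell and 7 stayed uncalled (median log2 fold change 0.01). Called genes made up 68.2% of these, near the 64.0% of all tested genes. Chst11, which places sulphate at the 4-O position and matters for cartilage in mouse, had 13.4 ± 0.493 CPM with dexamethasone and 92.4 ± 1.40 CPM in controls (SD, n = 3), a log2 fold change of -2.79. Papss2, which makes the sulphate donor in cartilage, fell by 1.75, and Csgalnact1, which starts the chain, rose by 1.53 on the log2 scale. Named after its values were seen, Chst3, which sulphates the 6-O position, had 36, 40 and 40 counts with dexamethasone and 10, 2 and 8 counts in controls, a log2 fold change of 2.52.

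**Figure D3:**
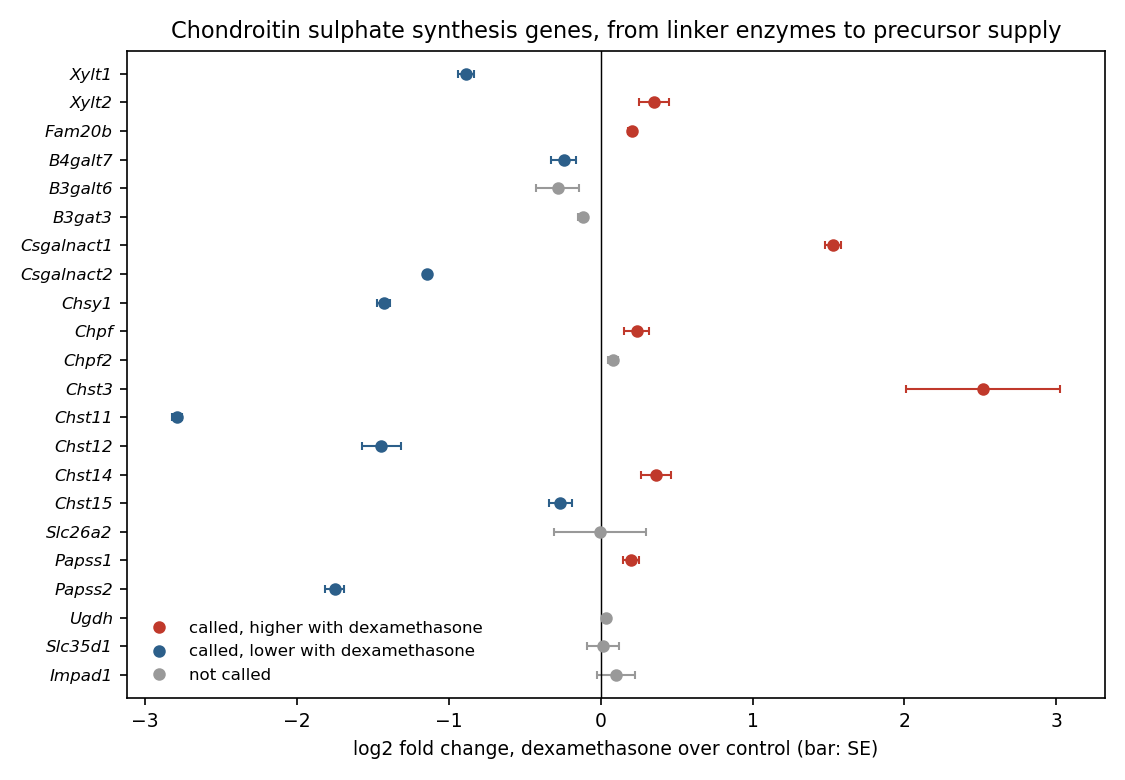
log2 fold change of dexamethasone over control (points, with bars for the SE from 3 replicates a group) for 22 tested genes of chondroitin sulphate synthesis, from the linker enzymes at the top to the supply of precursors at the bottom. Red is called higher, blue called lower and grey not called; Chst11 at -2.79 and Chst3 at 2.52 lie at the opposite ends.

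Genes for breakdown of aggrecan and cartilage matrix, and their inhibitors, also changed in both directions. Of 13 tested, 6 rose, 6 fell and 1 stayed uncalled (median log2 fold change -0.47). Called genes made up 92.3% of these, against 64.0% of all tested genes. Adamts15 rose and Adamts8 fell, both of the ADAMTS protease family, with log2 fold changes of 5.18 ± 0.29 and -5.21 ± 0.13 (SE). A2m, which encodes the broad protease inhibitor alpha-2-macroglobulin, had 389 counts with dexamethasone and 6 in controls, a ratio of 65.0 with an interval of 21.9 to 318; its log2 fold change of 5.93 became 6.86 without control replicate 1, which held 4 of the 6 counts. The main aggrecanase genes, named after their values were seen, went opposite ways. Adamts5 had 126 ± 0.865 CPM with dexamethasone and 39.5 ± 1.10 CPM in controls, and Adamts4 had 12.3 ± 0.951 CPM with dexamethasone and 20.6 ± 0.638 CPM in controls (SD, n = 3).

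Genes linked to lubricin, hyaluronan and the joint surface did not move as a block with Prg4. Of 17 tested, 7 rose and 10 fell; the median log2 fold change was -0.59. Has2, the main hyaluronan synthase of mesenchymal cells, had 12.5 ± 0.430 CPM with dexamethasone and 156 ± 4.31 CPM in controls (SD, n = 3), a log2 fold change of -3.65. Dkk3 and the transcription factor gene Nfatc1 fell by 4.12 and 2.99 on the log2 scale. Foxo1 and Foxo3 encode transcription factors of the FoxO family, which has been linked to Prg4 expression in mouse cartilage. Named after their values were seen, they had log2 fold changes of 2.26 ± 0.13 and 1.86 ± 0.14 (SE). The part of these or any other genes of this list in the rise of Prg4 was not tested.

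**Figure D4:**
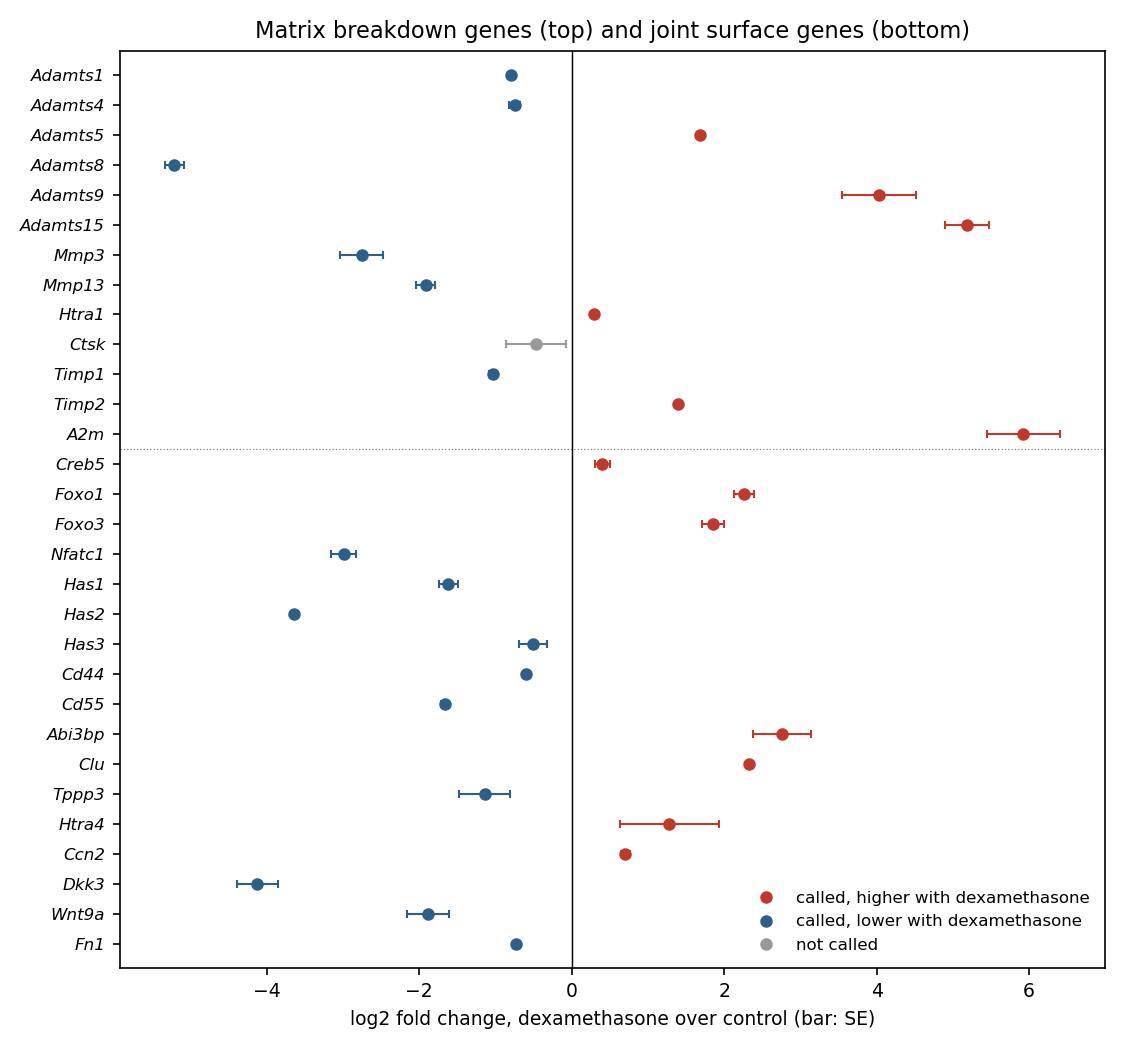
log2 fold change of dexamethasone over control (points, with bars for the SE from 3 replicates a group) for 13 tested genes of matrix breakdown above the dotted line and 17 tested joint surface genes below it. Red is called higher, blue called lower and grey not called. Each list holds strong changes both ways. Matrix breakdown genes run from Adamts8 at -5.21 to A2m at 5.93, which is a fitted value against 6 control counts. Joint surface genes run from Dkk3 at -4.12 to 2.75.

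Of 7 tested genes of hypertrophic chondrocytes, 2 rose, 3 fell and 2 stayed uncalled (median log2 fold change 0.09). Vegfa, the angiogenic factor, Runx2, which drives hypertrophy and bone, and Mef2d fell by 3.23, 1.41 and 0.89 on the log2 scale. Sp7 had 0 counts in all libraries.

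Markers of cell types that make the 10 genes were set beside them. Of 5 chondrocyte markers other than Sox9 and Acan, none had enough counts to be tested, and their summed level was 0.170 to 0.261 CPM with dexamethasone and 0.130 to 0.300 CPM in controls. Of 5 synovial lining markers other than Prg4, 4 were tested: Cd55 and Clic5 fell by 1.66 and 1.68 on the log2 scale, Hbegf also fell and Htra4 rose. Their summed level was 86.2 to 92.5 CPM with dexamethasone and 224 to 230 CPM in controls, the opposite of Prg4. Of 6 tendon markers 2 were tested: Scx fell by 2.74 and Fmod fell by 1.49 on the log2 scale, and Mkx and Tnmd had 0 counts. Among marrow stroma markers, 4 rose, 4 fell and 1 did not pass. Prrx1 and Pdgfrb fell by 3.27 and 2.17, and Pdgfra, whose exons overlap another gene on the same strand, rose by 0.69 on the log2 scale.

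Markers of other cell types had summed levels far below those of marrow stroma, and such sums do not count cells. The summed level of 8 macrophage markers was 1.36 to 1.71 CPM with dexamethasone and 5.35 to 6.33 CPM in controls; Cd68, Cd74 and Cd53 fell, 2 did not pass and 3 were not tested, among them Adgre1 and Cd163 with 0 counts. The 6 osteoblast markers summed to 11.0 to 13.3 CPM with dexamethasone and 29.8 to 33.1 CPM in controls, of which Runx2, which fell, held nearly all; Alpl did not pass and the other 4 were not tested. The 6 adipocyte markers summed to 1.47 to 1.60 CPM with dexamethasone and 1.15 to 1.93 CPM in controls. The 4 endothelial markers summed to 1.47 to 2.02 CPM with dexamethasone and 1.45 to 2.10 CPM in controls; Vwf fell and Tek rose by 0.81 on the log2 scale, a call lost without dexamethasone replicate 1 or control replicate 3 (adjusted p of 0.0512 and 0.0852, edgeR's quasi-likelihood test) and against a fold change of 1.5 (adjusted p = 0.312). The summed levels of the macrophage and osteoblast markers were lower with dexamethasone, as were Sox9 and Acan, and their part in those results was not tested.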

How the data were processed

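Gene counts of 6 rat BMSC libraries were analysed, 3 dexamethasone and 3 control, grouped by their titles. The deposited values were raw read counts per gene in a single table with exon positions and lengths, per the file headers. Per the labels' protocols, libraries were built from column-purified total RNA by a SMARTER mRNA kit. The submitters' processing notes name the build mm10, although the table held rat genes: all 10 symbols were on the same chromosome in a rat RefSeq gene table. The sources used here name no aligner, counting program, strand setting or rule for multi-mapping reads.

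filterByExpr kept 14111 genes and left out 16100. After TMM scaling, counts were tested in edgeR 4.0.16 in R 4.3.3 (robust quasi-likelihood fit, group as the only term, Benjamini-Hochberg adjustment). Standard errors were computed from replicate log2 CPM values (prior count 2). Of counts from 1 to 10, 72.0% were even, against 50.6% of those of 1000 or more; the floor was therefore 6 counts, and intervals (exact binomial, 95%) used counts divided by 2 and rounded up. Intervals and floors cover counting error only. Alternatives used DESeq2 1.42.0, limma 3.58.1, other scalings, filters and dispersions, a replicate block and leaving out each library. Replicates differed beyond counting noise, so none was a copy of another library. This does not tell separate cultures from repeat preparations of the same culture. The scripts were tested on simulated data.

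The members and lists were chosen with earlier results of these data known. All 10 members were named. From each other list, the 3 called genes with the largest change and a mean of at least 1 CPM were named, and for Sox9 and Prg4 the 3 genes nearest in pattern. No sequence is shown.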

Additional observations from a re-analysis of the deposited data

How the results depend on the processing

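The calls of Prg4, Sox9 and Acan, and the lack of a call for Sox5 and Chad, held under all 16 alternatives. Over them the log2 fold change ran from 4.23 to 4.30 for Prg4, from -3.14 to -3.06 for Sox9, from -3.00 to -2.66 for Acan and from 0.18 to 0.41 for Chad. For Sox5 it ran from -0.0095 to 0.072; the sign turned without dexamethasone replicate 1 (-0.0014) and without control replicate 3 (-0.0095), with no call either way. With the coefficient of variation set to 0.2, 3693 of all genes were called, 1993 up and 1700 down, in place of 9027, 4559 and 4468. Tested against a fold change of 1.5, 2827 were called, 1549 up and 1278 down. Of the wider cartilage lists, 23 genes rose and 43 fell under the first setting, and 21 rose and 40 fell under the second, in place of 36 and 50, so rises were a smaller share of the calls; both settings are stricter by construction.

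No pairing of libraries by replicate number was detected. Deviations of same-numbered libraries correlated at 0.0026, -0.0078 and 0.020, and dexamethasone replicate 2 correlated best with control replicate 1. Whether same-numbered libraries came from the same culture or animal cannot be told from these values. With the replicate number as a block, 8991 genes and the same 3 cartilage genes were called. Depth limits Sox6, Comp, Hapln1 and Matn3, which lie around the floor of 6 counts, and Cytl1, which had 0 counts.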
